A study of Homo sapiens with 12 samples.

Results

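The genes described here are 35 members of the machinery that repairs DNA breaks by homologous recombination, unhooks DNA crosslinks through the Fanconi anemia pathway and halts the cell cycle through checkpoint kinases. The members were chosen by name, and each was followed through the bead-array probes that the platform annotation pairs with its symbol. Of the 35, 31 had an annotated probe, with 54 probes among them, and 26 entered the test beside all other measured genes, 11423 genes in all of 20046 named on the array. Bead arrays were hybridised with RNA from DBTRG and U87, both human glioblastoma cell lines, 12 arrays in 6 groups of 2. DBTRG cells received Y15, a compound that blocks focal adhesion kinase (FAK), at 10 µM for 24 h, or were left untreated. U87 cells received temozolomide together with Y15, temozolomide alone, Y15 alone at 10 µM, or nothing, also over 24 h. Temozolomide, the DNA-alkylating drug used against glioblastoma, is given as 20 µM in the sample titles and as 100 µM in the study's design text, so its dose remains unsettled. Whether the 2 arrays of a group came from separate cultures is not stated, and the p-values below therefore cover array-to-array spread that may be only technical.

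Homologous recombination copies the lost sequence of a broken chromosome from its sister chromatid, which makes it a pathway of S and G2 phase. The MRE11, RAD50 and NBN complex opens the break, EXO1 and BLM help resect it, BRCA1 with BARD1 and PALB2 prepares the end for strand exchange, and RAD51C, RAD51D, XRCC2, XRCC3 and the RAD54 translocases assist in the exchange. The Fanconi core complex ubiquitinates the FANCI and FANCD2 pair at crosslinks, while ATM and ATR, through CHEK2 and CHEK1, pass the damage signal on to the cell cycle. Many of these genes are transcribed mainly in dividing cells.

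The arrays had between 14437 and 16889 detected probes each, and replicate arrays correlated at 0.986 to 0.995 across the tested genes. Of the markers of a glial or neural line, VIM, NES and CD44 were detected on all 12 arrays, SOX2 on 4 DBTRG and 2 U87 arrays, and OLIG2 on 8 U87 arrays and 0 DBTRG arrays, while GFAP and S100B were detected on 0 arrays. The leukocyte markers PTPRC and CD3E, the endothelial markers CDH5 and VWF and the epithelial marker CDH1 were also detected on 0 arrays. Others of these lists were detected on some arrays: KRT18 on 4 and KRT8 on 3 DBTRG arrays, EPCAM on 4 U87 arrays, and PECAM1 on 1 DBTRG and 4 U87 arrays. Over its 2 probes the microglial marker AIF1 was detected on 1 DBTRG and 6 U87 arrays, and the fibroblast markers COL1A2 and DCN were detected on 12 arrays and on 1 array. The part of these markers in the results was not tested. The fibroblast markers COL1A1 and PDGFRB and the macrophage marker CSF1R were detected on 8 U87 arrays and 0 DBTRG arrays.

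9 members did not enter the test. BRCA2, RBBP8, FANCA and FANCD2 had no annotated probe in the table used, and are not analysed here. RAD50, FANCF, FANCM and BRIP1 had a probe that was detected on 0 arrays, and FANCC on 1, below the minimum of 2 arrays with a detection p under 0.01. ATR passed that minimum only through the 2 untreated U87 arrays, which were its highest, so its values are a description, and where ATR itself was called the count is given over the other 25 members. Counts with an array left out or under another setting include ATR. The SD of the difference between replicate arrays across the 26 tested members was 0.302 (log2) in Y15-treated DBTRG cells and 0.219 in untreated DBTRG cells. In U87 cells it was 0.202 with temozolomide plus Y15, 0.216 with temozolomide, 0.249 with Y15 and 0.153 without treatment.

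Promoter stretches are shown for 4 members that recur below, 3 that fell in DBTRG cells and 1, XRCC2, that moved the other way in U87 cells. They come from RefSeq windows on build GRCh38.p14 that run from 250 bases before to 50 bases after each gene's annotated start, and each is printed 5′ to 3′ on the gene's own strand. Capitals mark letters of 2 motifs that recur in cell-cycle promoters, the CCAAT box (CCAAT, or ATTGG when it lies on the opposite strand) and the CHR element (TTTGAA or TTCGAA, on either strand). The H2AX stretch lies at chr11:119095521-119095635 on the minus strand, from −170 to −56 relative to the start. The RAD54L stretch lies at chr1:46247578-46247687 on the plus strand and the CHEK1 stretch at chr11:125626109-125626228 on the plus strand. The XRCC2 stretch lies at chr7:152676142-152676251 on the minus strand and holds none of the letters searched, although its full window has an E2F-type match (TTTCCCGC, opposite strand) at bases 22 to 29 counted from the start, outside the stretch. The last 3 stretches end at the base before the start.
H2AX: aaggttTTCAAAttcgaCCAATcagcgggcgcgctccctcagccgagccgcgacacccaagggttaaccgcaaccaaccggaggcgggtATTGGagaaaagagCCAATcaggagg
RAD54L: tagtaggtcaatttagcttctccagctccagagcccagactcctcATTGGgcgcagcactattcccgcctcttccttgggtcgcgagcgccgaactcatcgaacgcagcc
CHEK1: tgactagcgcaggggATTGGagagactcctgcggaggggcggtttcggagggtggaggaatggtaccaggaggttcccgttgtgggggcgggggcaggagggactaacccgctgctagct
XRCC2: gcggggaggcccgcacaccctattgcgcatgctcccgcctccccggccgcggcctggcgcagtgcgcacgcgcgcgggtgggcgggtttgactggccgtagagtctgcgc

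A promoter window was found for 32 of the 35 members, the others being RAD54B, NBN and FANCI. The CCAAT letters occurred in 15 of these 32 windows (46.9%), against 35.7% of all 27303 windows of the same length. The CHR letters occurred in 4 (12.5%), against 16.6% of all windows. E2F-type letters (TTTCCCGC, TTTGGCGC, TTTCGCGC, TTTGCCGC, TTTGGCGG, TTTCCCGG or TTTCGCGG, on either strand) occurred in 9 (28.1%), against 5.71% of all windows. Among the 16 windows of members that fell with Y15 in DBTRG cells, 8 held CCAAT, 2 held CHR letters and 2 held E2F-type letters. Among the 7 windows of tested members that were not called lower there, 3 held CCAAT, 0 held CHR letters and 2 held E2F-type letters. These matches describe letters in a window, and no test was made of them.

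The first comparison asks how the members responded to Y15 in DBTRG cells. Y15 lowered the RNA of 19 of the 26 tested members and raised that of 0 at a limma adjusted p under 0.05. The share of members called lower was 73.1%, against 18.4% of all 11423 genes tested, and the share of all genes called higher was 19.4%. The median log2 change was −0.66 over the 26 tested members and 0.01 over all genes tested. Folds of the called members ran from 1.42 to 2.84, and 6 members fell at least 2-fold: H2AX, RAD54L, CHEK1, FANCL, CHEK2 and RAD51AP1. The other 13 were TOPBP1, FANCI, RAD51D, BLM, BARD1, NBN, EXO1, FANCE, ATM, BRCA1, MRE11, FANCG and RAD54B. When 1 array was left out at a time, between 15 and 20 members were called. ATM lost its call without Y15 replicate 1 (adjusted p = 0.0851), without untreated replicate 1 (0.0545) and without untreated replicate 2 (0.0519). EXO1, FANCE, MRE11 and RAD54B lost theirs without Y15 replicate 2, at adjusted p-values of 0.0945, 0.0544, 0.0657 and 0.118. MRE11 (adjusted p = 0.069) and RAD54B (0.0757) were also lost without untreated replicate 1, and EXO1 (0.0842) and RAD54B (0.068) without untreated replicate 2. Under median centring EXO1, FANCE, FANCG, MRE11 and RAD54B lost their calls (adjusted p = 0.0812, 0.0552, 0.136, 0.0837 and 0.173). With only the DBTRG arrays fitted, ATM, EXO1, FANCG, MRE11 and RAD54B lost theirs, at adjusted p-values from 0.0546 to 0.0786.

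**Figure D1:**
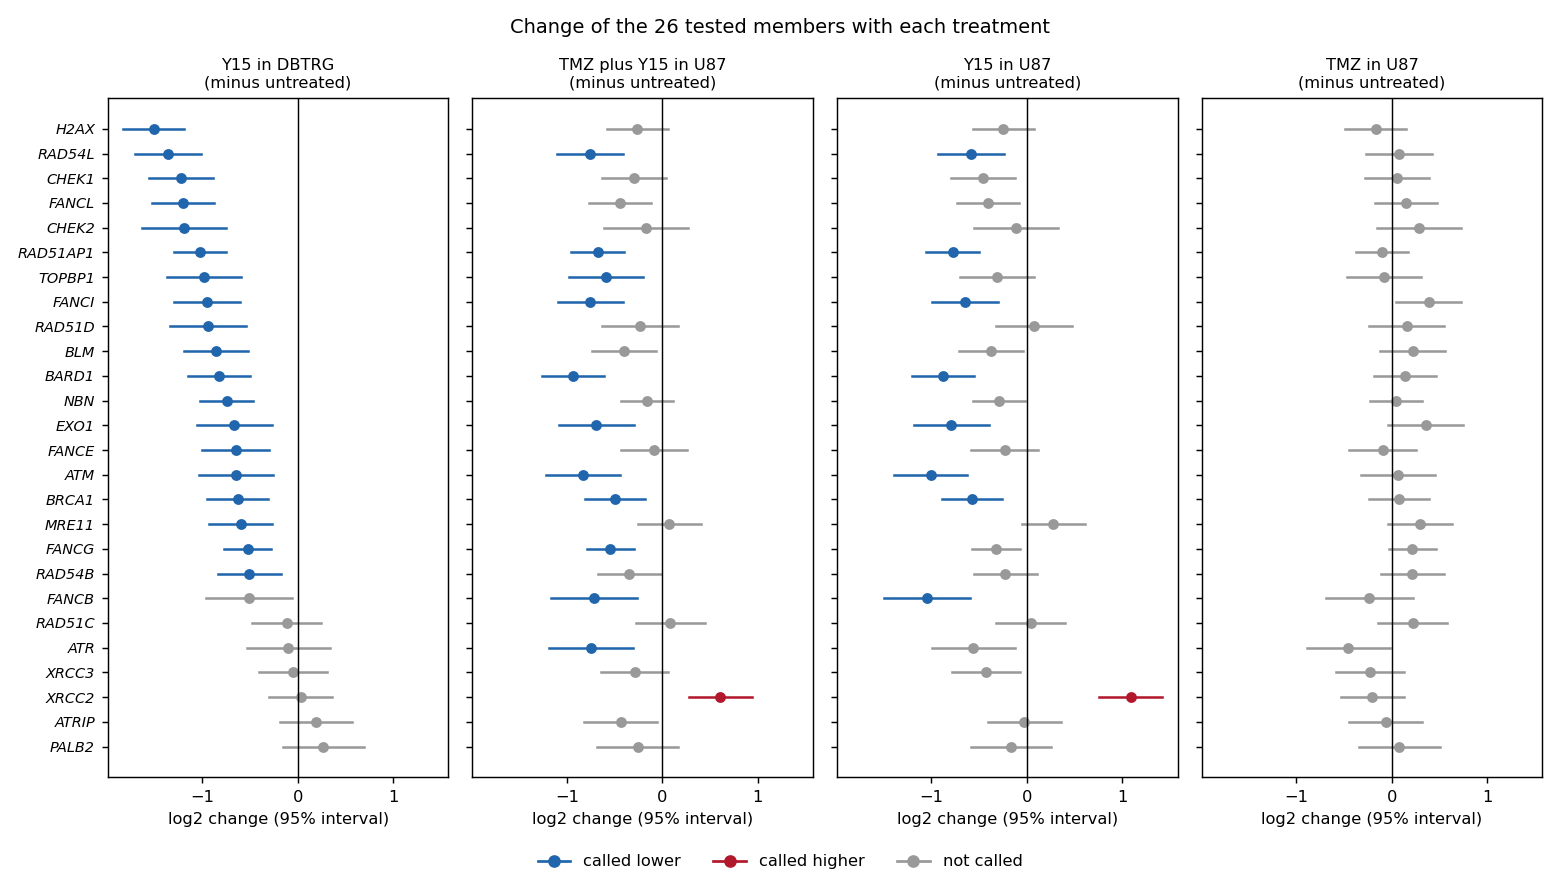
Log2 change (x axis) of each of the 26 tested members (y axis, ordered by the change with Y15 in DBTRG cells) against untreated cells of the same line, with 95% intervals from limma, for Y15 in DBTRG and for temozolomide (TMZ) plus Y15, Y15 and TMZ in U87. Blue marks the 19, 11 (ATR among them) and 8 members called lower in the first 3 panels, red the single member called higher (XRCC2) in U87 cells given Y15 with or without TMZ, and no member is coloured with TMZ alone. The untreated U87 arrays alone carried ATR through the filter, so its U87 changes, intervals and blue mark are no finding.

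The same question in U87 cells gave fewer calls. Y15 lowered 8 of the 26 tested members (30.8%), against 13.4% of all genes, and raised 1 member (3.85%), against 8.61% of all genes. The members called lower were FANCB, ATM, BARD1, EXO1, RAD51AP1, FANCI, RAD54L and BRCA1, with folds from 1.49 to 2.06, and the member called higher was XRCC2, at 2.13-fold. The median log2 change was −0.32 over the 25 tested members other than ATR, −0.35 with ATR included, and −0.07 over all genes. Only 4 members were called without untreated replicate 2, where BRCA1, EXO1, FANCB, FANCI and RAD54L had adjusted p-values between 0.0514 and 0.117. Without untreated replicate 1, BRCA1 (adjusted p = 0.0713) and RAD54L (0.135) lost their calls. Without Y15 replicate 1, BRCA1 (adjusted p = 0.127), EXO1 (0.0772) and RAD54L (0.179) lost theirs, and without Y15 replicate 2 FANCI did (0.0796). Array weights raised the count to 15 members, 1 higher and 14 lower. Median centring of the arrays, used instead of quantile normalization, turned the split to 0 higher and 24 lower, but that setting also moved the median of all genes to −0.60. With ATR included, the members' median lay 0.40 below that of all genes on the log2 scale under centring and 0.28 below it otherwise.

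Of the 19 members lower in DBTRG cells, 7 were also lower in U87 cells, which is 36.8% of the DBTRG list and 87.5% of the U87 list. They were BRCA1, BARD1, RAD51AP1, RAD54L, EXO1, FANCI and ATM. Over all genes tested, 683 were called lower in both lines, 32.5% of the 2100 lower in DBTRG cells and 44.6% of the 1532 lower in U87 cells. Of the other 12 members, 10 (83.3%) had a log2 change below 0 in U87 cells without being called, against 74.6% of the genes called lower in DBTRG cells alone.

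Cell-cycle genes moved beside the members, and in bulk RNA fewer dividing cells and less RNA per cell cannot be told apart. Of 18 measured S-phase genes, such as the MCM helicase subunits, 17 fell and 0 rose with Y15 in DBTRG cells, with a median log2 change of −0.94. All 15 measured mitosis genes fell there, with a median of −1.29. The summed intensity of the mitosis list was 9184 and 9578 in Y15-treated DBTRG arrays, against 20510 and 21093 in untreated ones. The summed intensity of the 26 tested members was 5619 and 4846 in Y15-treated DBTRG arrays, against 9069 and 8831 in untreated ones. In U87 cells Y15 lowered 10 and raised 1 of the 18 S-phase genes (median −0.53) and lowered 13 and raised 0 of the 15 mitosis genes (median −0.64). The summed mitosis intensity was 11597 and 11810 with Y15 in U87 cells, against 17572 and 18482 untreated. The members summed to 6191 and 6086 with Y15 in U87 cells, against 6947 and 6984 untreated. Single bright members weigh on these sums. At the group mean, XRCC2 had an intensity of 1264 with Y15 in U87 cells, against 595 untreated. H2AX had 672 in Y15-treated DBTRG cells, against 1910 in untreated ones. The part of cell-cycle position in the members' changes was not tested.

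Among the checkpoint members, the 2 effector kinases fell with Y15 in DBTRG cells. CHEK1, the kinase that carries the ATR signal, had log2 intensities of 8.49 and 8.10 in Y15-treated DBTRG cells, against 9.65 and 9.38 in untreated DBTRG cells. In U87 cells CHEK1 read 7.44 and 7.48 with temozolomide plus Y15, 7.93 and 7.68 with temozolomide, 7.27 and 7.32 with Y15, and 7.72 and 7.79 untreated. Both treated DBTRG arrays lay below both untreated ones, and the log2 change was −1.22 ± 0.15 (SE; 2.33-fold, adjusted p = 0.000158). With Y15 in U87 cells the change of CHEK1 was −0.46 ± 0.15 (adjusted p = 0.0528), not past the threshold although the 2 pairs of arrays did not overlap. CHEK2, the kinase downstream of ATM, had 6.59 and 6.37 in Y15-treated DBTRG cells, against 7.88 and 7.46 in untreated DBTRG cells. Its change was −1.19 ± 0.20 (2.28-fold, adjusted p = 0.000945), with no overlap between the groups. In U87 cells CHEK2 read 7.62 and 7.16 with temozolomide plus Y15, 8.02 and 7.68 with temozolomide, 7.41 and 7.48 with Y15, and 7.68 and 7.43 untreated, and all 4 groups overlapped with at least 1 other. A further CHEK2 probe changed by −0.59 in DBTRG cells (adjusted p = 0.0157 over all probes).

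H2AX encodes the histone variant whose phosphorylated form marks the chromatin around a break. It had 9.40 and 9.39 in Y15-treated DBTRG cells, against 11.01 and 10.78 in untreated DBTRG cells. That is a fall by 1.51 ± 0.14 on the log2 scale (2.84-fold, adjusted p = 3.21e-05), the member with the lowest log2 change in that comparison. In U87 cells H2AX read 7.66 and 8.01 with temozolomide plus Y15, 8.01 and 7.85 with temozolomide, 7.94 and 7.75 with Y15, and 8.11 and 8.08 untreated. Every treated U87 array was below both untreated ones, but by at most 0.26 on the log2 scale between group means, and no U87 comparison called it. TOPBP1, an activator of ATR, had 8.02 and 8.03 in Y15-treated DBTRG cells, against 8.88 and 9.14 in untreated DBTRG cells, a change of −0.98 ± 0.18 (adjusted p = 0.00144). In U87 cells TOPBP1 read 8.44 and 8.14 with temozolomide plus Y15, 8.77 and 8.82 with temozolomide, 8.30 and 8.82 with Y15, and 8.83 and 8.92 untreated. The 2 Y15 arrays of U87 differed by 0.53 in this gene, and their change of −0.31 was not called (adjusted p = 0.236).

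ATM, the apical kinase of the double-strand break response, was lower with Y15 in both lines. It had 5.83 and 6.41 in Y15-treated DBTRG cells, against 6.77 and 6.77 in untreated DBTRG cells. In U87 cells ATM read 6.69 and 6.44 with temozolomide plus Y15, 7.53 and 7.40 with temozolomide, 6.42 and 6.36 with Y15, and 7.32 and 7.47 untreated. In U87 the 4 arrays with Y15 lay below the 4 without it. The change with Y15 was −0.65 ± 0.17 in DBTRG cells (adjusted p = 0.0139) and −1.01 ± 0.17 in U87 cells (2.01-fold, adjusted p = 0.00273). A further ATM probe, detected on 12 arrays, changed by 0.10 in DBTRG cells (adjusted p = 0.681 over all probes) and by −0.75 in U87 cells (adjusted p = 0.00909). Averaging a gene's kept probes gave a DBTRG change of −0.28 for ATM (adjusted p = 0.182), so its DBTRG call rests on the brighter probe. Without Y15 replicate 1, whose ATM value was the lowest, the DBTRG change was −0.36 (adjusted p = 0.0851).

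ATR, the kinase that responds to single-stranded DNA, had 4.88 and 4.47 in Y15-treated DBTRG cells, against 4.63 and 4.92 in untreated DBTRG cells, none of them detected. In U87 cells ATR read 4.99 and 4.63 with temozolomide plus Y15, 5.25 and 4.96 with temozolomide, 4.87 and 5.12 with Y15, and 5.41 and 5.70 untreated, with only the untreated pair detected. Its treated levels are therefore bounds. Since the untreated U87 pair alone carried ATR through the filter, its lower values elsewhere are no finding, and no test of it is given. Its partner ATRIP changed by 0.19 with Y15 in DBTRG cells (adjusted p = 0.42) and by −0.03 in U87 cells (adjusted p = 0.936), and neither change passed the threshold. A further ATRIP probe, detected on 12 arrays, had 0.38 in DBTRG cells and −0.49 in U87 cells (adjusted p = 0.0826 and 0.0504 over all probes). Its difference between the lines, 0.87, was called (adjusted p = 0.0216 over all probes).

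Of the break-sensing complex, NBN, the subunit that recruits ATM, had 7.93 and 7.83 in Y15-treated DBTRG cells, against 8.62 and 8.63 in untreated DBTRG cells. In U87 cells NBN read 7.87 and 8.14 with temozolomide plus Y15, 8.15 and 8.28 with temozolomide, 7.95 and 7.80 with Y15, and 8.14 and 8.20 untreated. It fell in DBTRG cells by 0.74 ± 0.12 on the log2 scale (adjusted p = 0.000957), and its change of −0.29 in U87 cells was not called (adjusted p = 0.122). A further NBN probe, detected on 5 arrays, had −0.44 in DBTRG cells (adjusted p = 0.074 over all probes) and −0.66 in U87 cells (adjusted p = 0.0241). MRE11, the nuclease of the complex, had 5.55 and 5.22 in Y15-treated DBTRG cells, against 6.09 and 5.88 in untreated DBTRG cells. In U87 cells MRE11 read 6.44 and 6.25 with temozolomide plus Y15, 6.45 and 6.68 with temozolomide, 6.45 and 6.64 with Y15, and 6.26 and 6.28 untreated. It was lower with Y15 in DBTRG cells, by −0.60 ± 0.15 (adjusted p = 0.00996), while in U87 cells both Y15 arrays stood above both untreated ones without a call (0.28 ± 0.15, adjusted p = 0.218). The DBTRG call of MRE11 was lost without Y15 replicate 2 (adjusted p = 0.0657), without untreated replicate 1 (0.069) and with the mean of its probes (−0.27, adjusted p = 0.0957). Its other kept probe, detected on 4 arrays, changed by 0.06 in DBTRG cells (adjusted p = 0.751). The MRE11 probe used was detected on 11 arrays. Its 5.22 in Y15-treated DBTRG cells lay below that array's lowest detected signal (5.39 on the log2 scale), so that value is a bound.

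EXO1 and BLM, the members named above as helping to resect the break, both fell with Y15 in DBTRG cells. EXO1, a nuclease that extends the resected end, had 7.76 and 7.27 in Y15-treated DBTRG cells, against 8.07 and 8.29 in untreated DBTRG cells. In U87 cells EXO1 read 7.53 and 7.27 with temozolomide plus Y15, 8.44 and 8.46 with temozolomide, 7.18 and 7.43 with Y15, and 8.0 and 8.19 untreated. The U87 arrays with Y15 were all below those without it. The change with Y15 was −0.66 ± 0.18 in DBTRG cells (adjusted p = 0.0135) and −0.79 ± 0.18 in U87 cells (adjusted p = 0.0107). A further EXO1 probe had −1.19 in DBTRG cells and −0.998 in U87 cells (adjusted p = 0.000291 and 0.00221 over all probes). BLM, the Bloom syndrome helicase, had 6.40 and 5.97 in Y15-treated DBTRG cells, against 7.05 and 7.04 in untreated DBTRG cells, a change of −0.86 ± 0.15 (adjusted p = 0.00139). In U87 cells BLM read 6.50 and 6.46 with temozolomide plus Y15, 6.97 and 7.24 with temozolomide, 6.59 and 6.42 with Y15, and 6.92 and 6.85 untreated. Its change with Y15 in U87 cells was −0.38 ± 0.15 (adjusted p = 0.103) and was not called.

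BRCA1 and BARD1, which form a ubiquitin ligase that acts at resected ends, were lower with Y15 in both lines. BRCA1 had 6.56 and 6.67 in Y15-treated DBTRG cells, against 7.31 and 7.18 in untreated DBTRG cells. In U87 cells BRCA1 read 7.13 and 6.86 with temozolomide plus Y15, 7.45 and 7.67 with temozolomide, 6.78 and 7.05 with Y15, and 7.46 and 7.51 untreated. All Y15 arrays were below all arrays without Y15 within each line. Its change with Y15 was −0.63 ± 0.14 in DBTRG cells (adjusted p = 0.00562) and −0.57 ± 0.14 in U87 cells (adjusted p = 0.0172). A further BRCA1 probe gave −0.76 in DBTRG cells (adjusted p = 0.00659 over all probes) and −1.34 in U87 cells (adjusted p = 0.000617). BARD1 had 7.41 and 7.43 in Y15-treated DBTRG cells, against 8.06 and 8.42 in untreated DBTRG cells. In U87 cells BARD1 read 7.66 and 7.46 with temozolomide plus Y15, 8.68 and 8.60 with temozolomide, 7.67 and 7.56 with Y15, and 8.38 and 8.61 untreated. The log2 change with Y15 was −0.82 ± 0.15 in DBTRG cells (adjusted p = 0.00145) and −0.88 ± 0.15 in U87 cells (adjusted p = 0.00217). PALB2, which bridges BRCA1 and BRCA2, changed by 0.27 in DBTRG cells (adjusted p = 0.302) and by −0.17 in U87 cells (adjusted p = 0.577), neither past the threshold.

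RAD51C, RAD51D, XRCC2 and XRCC3, which assist in strand exchange, did not move together. XRCC2 had 8.79 and 8.60 in Y15-treated DBTRG cells, against 8.61 and 8.72 in untreated DBTRG cells, and the pairs overlapped. In U87 cells XRCC2 read 9.93 and 9.72 with temozolomide plus Y15, 8.92 and 9.11 with temozolomide, 10.47 and 10.14 with Y15, and 9.30 and 9.13 untreated. The 4 U87 arrays with Y15 stood above the 4 without it. XRCC2 rose with Y15 in U87 cells by 1.09 ± 0.15 on the log2 scale (2.13-fold, adjusted p = 0.000752), and its change in DBTRG cells was 0.03 ± 0.15 (adjusted p = 0.885). Under median centring the U87 change of XRCC2 was 0.46 (adjusted p = 0.0603). RAD51D had 5.82 and 6.22 in Y15-treated DBTRG cells, against 6.99 and 6.93 in untreated DBTRG cells, a change of −0.94 ± 0.18 (adjusted p = 0.00211). In U87 cells RAD51D read 6.07 and 6.14 with temozolomide plus Y15, 6.27 and 6.72 with temozolomide, 6.38 and 6.45 with Y15, and 6.18 and 6.49 untreated, with a Y15 change of 0.07 (adjusted p = 0.808). A further RAD51D probe changed by −0.76 in DBTRG cells (adjusted p = 0.00821 over all probes). RAD51C and XRCC3 were not called with Y15 in either line: RAD51C had −0.12 in DBTRG and 0.04 in U87 cells, and XRCC3 −0.05 in DBTRG and −0.43 in U87 cells. Under median centring RAD51C (−0.64, adjusted p = 0.0266) and RAD51D (−0.44, adjusted p = 0.0482) were called lower with Y15 in U87 cells.

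RAD51AP1, RAD54L and RAD54B stimulate strand exchange, and all 3 fell in DBTRG cells. RAD54L had 5.88 and 6.10 in Y15-treated DBTRG cells, against 7.30 and 7.39 in untreated DBTRG cells. In U87 cells RAD54L read 7.17 and 7.20 with temozolomide plus Y15, 7.96 and 8.09 with temozolomide, 7.12 and 7.59 with Y15, and 8.02 and 7.87 untreated. It fell by 1.36 ± 0.16 on the log2 scale in DBTRG cells (2.57-fold, adjusted p = 9.81e-05) and by 0.59 ± 0.16 in U87 cells (adjusted p = 0.0232). The U87 call of RAD54L was lost without Y15 replicate 1, whose value was the lower of the pair (−0.35, adjusted p = 0.179). RAD51AP1 had 8.45 and 8.22 in Y15-treated DBTRG cells, against 9.37 and 9.35 in untreated DBTRG cells. In U87 cells RAD51AP1 read 8.48 and 8.44 with temozolomide plus Y15, 9.08 and 8.99 with temozolomide, 8.25 and 8.47 with Y15, and 9.19 and 9.08 untreated. Arrays with and without Y15 did not overlap in either line, and the change was −1.02 ± 0.12 in DBTRG cells (2.03-fold, adjusted p = 0.000134) and −0.78 ± 0.12 in U87 cells (adjusted p = 0.00172). RAD54B had 6.94 and 6.67 in Y15-treated DBTRG cells, against 7.32 and 7.31 in untreated DBTRG cells. In U87 cells RAD54B read 6.82 and 6.88 with temozolomide plus Y15, 7.46 and 7.38 with temozolomide, 7.19 and 6.75 with Y15, and 7.20 and 7.20 untreated. Its change was −0.51 ± 0.15 in DBTRG cells (adjusted p = 0.0211) and −0.23 in U87 cells (adjusted p = 0.309). Without Y15 replicate 2 the DBTRG change of RAD54B was −0.38 (adjusted p = 0.118).

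Of the Fanconi genes, FANCL, the ubiquitin ligase subunit of the core complex, had 7.61 and 7.41 in Y15-treated DBTRG cells, against 8.79 and 8.62 in untreated DBTRG cells. In U87 cells FANCL read 8.85 and 8.66 with temozolomide plus Y15, 9.52 and 9.19 with temozolomide, 8.84 and 8.75 with Y15, and 9.28 and 9.11 untreated. It fell in DBTRG cells by 1.20 ± 0.15 on the log2 scale (2.29-fold, adjusted p = 0.000145), and its U87 change of −0.40 was not called (adjusted p = 0.0736). FANCI, the partner of FANCD2 at crosslinks, had 7.32 and 7.34 in Y15-treated DBTRG cells, against 8.06 and 8.49 in untreated DBTRG cells. In U87 cells FANCI read 7.29 and 7.10 with temozolomide plus Y15, 8.38 and 8.30 with temozolomide, 7.36 and 7.25 with Y15, and 7.82 and 8.08 untreated. In U87 cells FANCI was lower on the 4 arrays with Y15, alone or combined, than on the untreated pair, and higher than that pair on both temozolomide arrays. Its change with Y15 was −0.95 ± 0.16 in DBTRG cells (adjusted p = 0.000867) and −0.65 ± 0.16 in U87 cells (adjusted p = 0.0145).

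The core-complex subunits FANCE and FANCG were lower in DBTRG cells, and FANCB in U87 cells. FANCE had 6.45 and 6.21 in Y15-treated DBTRG cells, against 6.97 and 6.99 in untreated DBTRG cells, a change of −0.65 ± 0.16 (adjusted p = 0.00844) that became −0.53 (adjusted p = 0.0544) without Y15 replicate 2. In U87 cells FANCE read 6.62 and 6.50 with temozolomide plus Y15, 6.56 and 6.55 with temozolomide, 6.16 and 6.67 with Y15, and 6.62 and 6.67 untreated, and its Y15 change of −0.23 was not called (adjusted p = 0.334). The 2 Y15 arrays of U87 thus disagreed for FANCE, one below and one level with the untreated pair. FANCG had 8.0 and 7.86 in Y15-treated DBTRG cells, against 8.40 and 8.50 in untreated DBTRG cells, a change of −0.52 ± 0.11 (adjusted p = 0.00413) that was −0.37 under median centring (adjusted p = 0.136) and was lost with only the DBTRG arrays fitted (adjusted p = 0.0546). In U87 cells FANCG read 8.52 and 8.45 with temozolomide plus Y15, 9.24 and 9.25 with temozolomide, 8.70 and 8.71 with Y15, and 8.94 and 9.12 untreated. Its groups of U87 arrays did not overlap, with the combination lowest and temozolomide alone highest. FANCB had 5.66 and 5.06 in Y15-treated DBTRG cells, against 5.82 and 5.91 in untreated DBTRG cells, a change of −0.51 that was not called (adjusted p = 0.0762). The FANCB probe used was detected on 11 arrays. Its 5.06 lay below that array's lowest detected signal (5.39 on the log2 scale), so that value is a bound. In U87 cells FANCB read 6.22 and 6.21 with temozolomide plus Y15, 6.90 and 6.50 with temozolomide, 5.72 and 6.05 with Y15, and 6.83 and 7.04 untreated. It fell with Y15 in U87 cells by 1.05 ± 0.20 on the log2 scale (2.06-fold, adjusted p = 0.00536), and without untreated replicate 2 it had −0.94 and was no longer called (adjusted p = 0.0514). Its other kept probe, detected on 8 arrays, changed by −0.50 (adjusted p = 0.188 over all probes).

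**Figure D2:**
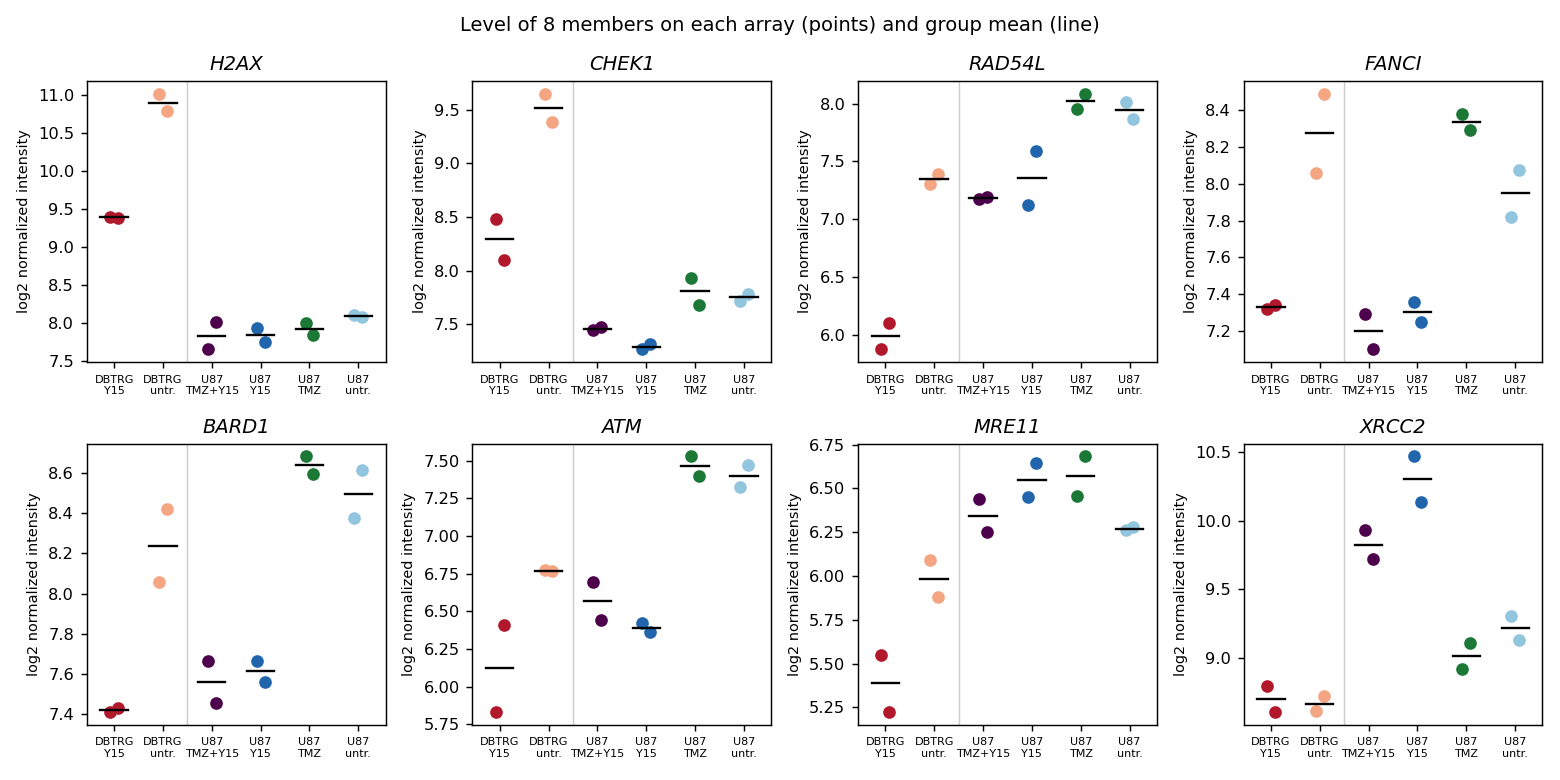
Log2 normalized intensity (y axis, own scale per gene, not starting at 0) of 8 members on each of the 12 arrays, with points for arrays, a line for each group's mean, and the groups along the x axis (untr., untreated; TMZ, temozolomide). H2AX and CHEK1 are higher in DBTRG than in U87 and lower with Y15 in DBTRG, RAD54L, FANCI, BARD1 and ATM are lower on the Y15 arrays of both lines, and XRCC2 is higher on the 4 U87 arrays with Y15.

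The next question is whether the 2 lines differed in their response to Y15. The difference of the Y15 change, DBTRG minus U87, passed the threshold for 8 of the 26 tested members, all 8 below 0, against 7.61% of all genes called below 0 and 12.4% called above 0. H2AX differed by −1.26 ± 0.20 (adjusted p = 0.00243), CHEK2 by −1.08 ± 0.28 (0.0217), XRCC2 by −1.05 ± 0.21 (0.00673) and RAD51D by −1.01 ± 0.25 (0.0179). MRE11 differed by −0.87 ± 0.21 (adjusted p = 0.0162), FANCL by −0.79 ± 0.21 (0.0226), RAD54L by −0.77 ± 0.22 (0.0326) and CHEK1 by −0.76 ± 0.21 (0.0315). The other kept MRE11 probe differed by 0.08 (adjusted p = 0.787 over all probes), a further CHEK2 probe by −0.45 (0.201) and a further RAD51D probe by −0.81 (0.0532), none of them called. For H2AX, CHEK2, FANCL, RAD54L and CHEK1 the change was below 0 in both lines and larger in DBTRG cells, for RAD51D and MRE11 it was below 0 in DBTRG cells and above 0 in U87 cells, and for XRCC2 it was above 0 in both and larger in U87 cells. ATM, BARD1 and BRCA1, called lower in both lines, had differences of 0.36 (95% interval −0.18 to 0.91), 0.06 (−0.39 to 0.52) and −0.06 (−0.50 to 0.39). Further probes of ATM and ATRIP had differences above 0, of 0.84 and 0.87 (adjusted p = 0.027 and 0.0216 over all probes). The used ATM and ATRIP probes were not called in this comparison. H2AX and XRCC2 were the 2 members whose difference was called whichever array was left out. Only 3 members were called without DBTRG untreated replicate 1, U87 untreated replicate 2 or U87 Y15 replicate 2, and 4 without U87 untreated replicate 1. In those 4 settings CHEK1, CHEK2, RAD51D, MRE11, FANCL and RAD54L were lost in 1 or more, at adjusted p-values up to 0.112. CHEK1, CHEK2 and FANCL were lost without DBTRG Y15 replicate 2 (adjusted p from 0.0602 to 0.0767), CHEK1 and FANCL without U87 Y15 replicate 1 (0.0662 and 0.0687), and RAD54L without DBTRG Y15 replicate 1 (0.0783) or DBTRG untreated replicate 2 (0.0826). With each array centred on its median all 8 calls were lost, and 9 members were called above 0 instead of 0, while the median difference of all genes was 0.70 rather than 0.07. With ATR included, the members' median lay 0.21 below that of all genes under centring and 0.36 below it otherwise. RAD54L also lost its call with the deposited log2 values and without background correction (adjusted p = 0.111 in each). No filter on dim probes (0.0504), array weights (0.056) and fitting only the arrays compared (0.071) lost it too. CHEK1 was lost with only the arrays compared (adjusted p = 0.0577), and MRE11 with the mean of its kept probes (0.12).

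**Figure D3:**
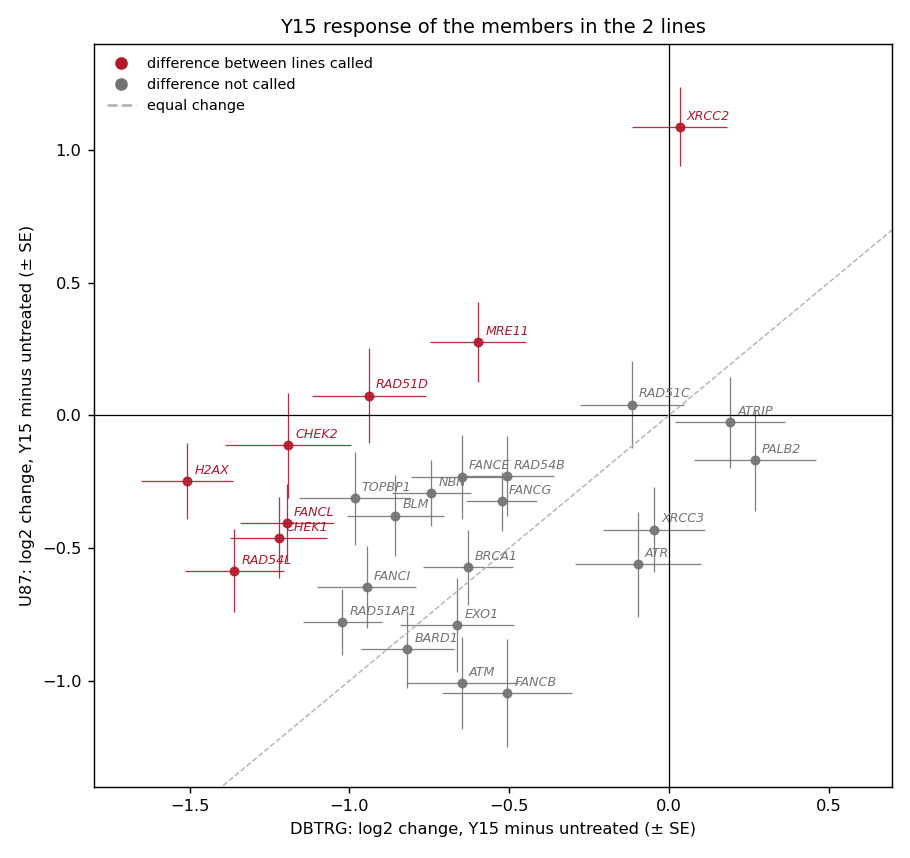
Log2 change with Y15 against untreated cells in DBTRG (x axis) and U87 (y axis) for the 26 tested members, with SE bars from limma, and a dashed line where the change is equal. The 8 members in red, whose difference between lines was called, lie above the line, with H2AX, RAD54L and CHEK1 at the left and XRCC2 alone at the top. The direction of ATR on the y axis was fixed by its filter and is no finding.

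On the probe used for each gene, untreated DBTRG cells differed from untreated U87 cells in 13 of the 25 tested members other than ATR. 5 members were higher in DBTRG cells, against 26.8% of all genes, and 8 were lower (32%), against 32.5% of all genes, so the members' share lower is near that background. H2AX was higher by 2.81 ± 0.14 on the log2 scale (6.99-fold, adjusted p = 4.25e-08) and CHEK1 by 1.76 ± 0.15 (3.39-fold, adjusted p = 2.75e-06), and even Y15-treated DBTRG arrays stood above every U87 array for both genes. RAD51C (0.79, adjusted p = 0.00169), RAD51D (0.62, 0.0115) and NBN (0.46, 0.00849) were also higher in DBTRG cells. FANCB (−1.07, adjusted p = 0.00104), ATRIP (−0.84, 0.00157), ATM (−0.63, 0.00956), XRCC3 (−0.61, 0.00733), RAD54L (−0.59, 0.00718), FANCG (−0.57, 0.00114), XRCC2 (−0.55, 0.00834) and FANCL (−0.49, 0.014) were lower in DBTRG cells. XRCC3 had 7.18 and 6.93 in untreated DBTRG cells, against 7.68 and 7.64 in untreated U87 cells, with no overlap. RAD51D was lost without DBTRG untreated replicate 1 (adjusted p = 0.053), FANCL (0.0844) and XRCC3 (0.0584) without DBTRG untreated replicate 2, and ATM (0.065) without U87 untreated replicate 2. FANCL, RAD51D, RAD54L and XRCC2 were lost without U87 untreated replicate 1, at adjusted p-values from 0.0541 to 0.0993. Under median centring, which moved the median of all genes to −0.48, the split was 2 higher and 13 lower with ATR among the 13, NBN had −0.11 (adjusted p = 0.638), and RAD51C (0.20, 0.478) and RAD51D (0.23, 0.299) lost their calls. With the mean of its kept probes NBN had 0.17 (adjusted p = 0.249), and its other kept probe had −0.11 (adjusted p = 0.623 over all probes). Further probes of BRCA1 (−0.64, adjusted p = 0.00917 over all probes), CHEK2 (−0.43, 0.0424) and EXO1 (0.67, 0.00449) were called, although the probes used for these genes were not.

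Temozolomide is a DNA-damaging drug, and the question for these genes is whether it changed their RNA by 24 h. None of the 26 tested members was called with temozolomide alone in U87 cells by limma, against 0.00875% of all genes, which is 1 gene. At an unadjusted p under 0.05 there was 1 of the 25 members other than ATR, FANCI (0.39), and 465 of all genes. Every alternative setting called 0 members as well. The median log2 change was 0.08 over the tested members, and without ATR the changes ran from −0.23 to 0.39. The 95% intervals of these 25 lay within 1 log2 unit of 0, from −0.69 at the lowest to 0.75 at the highest. The interval for CHEK1 was −0.28 to 0.39, for BRCA1 −0.24 to 0.39 and for H2AX −0.49 to 0.15. EXO1 had both temozolomide arrays above both untreated ones, with a change of 0.36 ± 0.18 (adjusted p = 1).

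Temozolomide together with Y15 lowered 10 of the 25 tested members other than ATR (40%) against untreated U87 cells, against 13.2% of all genes, and raised 1, against 9.95% of all genes. The members called lower were BARD1 (−0.94, adjusted p = 0.00167), ATM (−0.83, 0.00747), RAD54L (−0.76, 0.00691), FANCI (−0.75, 0.00687), FANCB (−0.72, 0.0293) and EXO1 (−0.69, 0.0186). RAD51AP1 (−0.68, adjusted p = 0.00372), TOPBP1 (−0.58, 0.0354), FANCG (−0.54, 0.00674) and BRCA1 (−0.49, 0.0311) were also lower. Further probes of ATM and FANCB had −0.33 (adjusted p = 0.178 over all probes) and −0.26 (0.516), neither called. FANCB lost its call with the mean of its kept probes (adjusted p = 0.0807) and with no filter on dim probes (0.0527). XRCC2 was called higher (0.61 ± 0.15, 1.53-fold, adjusted p = 0.0149). This comparison and that of Y15 alone share their untreated arrays. BARD1 and RAD51AP1 were the 2 members called whichever array was left out. Without untreated replicate 2, 3 members were called, and ATM, BRCA1, EXO1, FANCB, FANCG, FANCI, TOPBP1 and XRCC2 had adjusted p-values from 0.0619 to 0.167. Without combination replicate 2, 4 were called, and ATM, BRCA1, EXO1, FANCB, FANCG, FANCI and TOPBP1 had adjusted p-values from 0.0577 to 0.227. Without untreated replicate 1, 7 were called, ATR among them, and BRCA1, EXO1, FANCB, RAD54L and TOPBP1 had adjusted p-values from 0.0538 to 0.103. Without combination replicate 1, FANCB (adjusted p = 0.104) and XRCC2 (0.106) were lost. Under median centring the split was 0 higher and 13 lower, ATR among the 13, and XRCC2 had 0.42 (adjusted p = 0.155). Of the cell-cycle lists, 12 of 18 S-phase genes fell and 1 rose, and 11 of 15 mitosis genes fell and 0 rose, and their part in the members' changes was not tested.

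Against temozolomide alone, the combination lowered 11 members, against 14.5% of all genes, and raised 1, against 10.9% of all genes. FANCI changed by −1.14 ± 0.16 (2.21-fold, adjusted p = 0.000708), BARD1 by −1.08 ± 0.15 (2.11-fold, adjusted p = 0.000691) and EXO1 by −1.05 ± 0.18 (2.06-fold, adjusted p = 0.00242), and in each of these 3 genes both combination arrays lay below both temozolomide arrays. ATM (−0.90, adjusted p = 0.00471), RAD54L (−0.84, 0.00385), FANCG (−0.76, 0.00111), BLM (−0.62, 0.0137) and FANCL (−0.60, 0.0137) were lower, as were RAD51AP1 (−0.58, 0.00755), BRCA1 (−0.57, 0.0157) and RAD54B (−0.56, 0.0198). A further ATM probe had −0.38 and was not called (adjusted p = 0.115 over all probes). XRCC2 was higher (0.81 ± 0.15, adjusted p = 0.00355). Of these 11, 7 were also among the 8 called lower with Y15 alone against untreated cells, a comparison that shares no arrays with this one, which is 63.6% of these 11 and 87.5% of those 8. Over all genes tested, 59.9% of those lowered by the combination against temozolomide were also lower with Y15 alone, and 64.6% the other way round. Without combination replicate 2 the count was 7, and BLM, BRCA1, FANCL, RAD51AP1 and RAD54B had adjusted p-values from 0.056 to 0.13. BLM (adjusted p = 0.0583) and RAD54B (0.0963) were lost without combination replicate 1, FANCL (0.116), RAD51AP1 (0.0559) and RAD54B (0.105) without temozolomide replicate 1, and BLM (0.101), BRCA1 (0.108) and RAD54B (0.0647) without temozolomide replicate 2.

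Adding temozolomide to Y15 called 0 members, against 0.306% of all genes, with 2 members and 1289 of all genes at an unadjusted p under 0.05 in limma. XRCC2 had the lowest adjusted p of the members, at −0.48 ± 0.15 (adjusted p = 0.227), with both combination arrays (9.93 and 9.72) below both Y15 arrays (10.47 and 10.14). The other was ATRIP, at −0.41 (adjusted p = 0.4). The 95% intervals of the 25 members other than ATR ran from −0.81 to 0.78. The count was 0 in the other settings except median centring, where 9 members were called higher while the median of all genes was 0.43. The interaction of temozolomide and Y15 was called for 0 members and 0% of all genes in limma, with 3 members and 950 of all genes at an unadjusted p under 0.05. The lowest adjusted p was 0.465, for FANCG (−0.44), and the 95% intervals ran from −1.02 to 1.20, wider than 1 log2 unit on both sides of 0.

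Other genes of the same processes, listed apart from the members, were set beside them. Of 18 measured checkpoint partners 13 fell and 0 rose with Y15 in DBTRG cells (median log2 change −0.68), and of 37 measured recombination and Fanconi partners 14 fell and 5 rose (median −0.17). Of 11 genes of non-homologous end joining, the pathway that religates breaks without a template, 4 fell and 1 rose (median −0.20). Over all genes tested, 18.4% were called lower and 19.4% higher in that comparison. The partners that changed at least 2-fold were CCNB1 (−1.33, adjusted p = 6.8e-05) and CDK1 (−1.29, adjusted p = 1.96e-05), which drive entry into mitosis, and CDK2 (−1.15, 0.000147), POLQ (−1.12, 7.24e-05), PKMYT1 (−1.06, 0.000869) and BRCC3 (−1.05, 0.000281). CDK1 and CCNB1 also stand in the mitosis list. PKMYT1 inhibits CDK1, POLQ is the polymerase of microhomology-mediated end joining, and BRCC3 is a deubiquitinase of the BRCA1-A complex.

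In U87 cells Y15 lowered 4 and raised 0 of the 18 checkpoint partners, lowered 5 and raised 1 of the 37 recombination and Fanconi partners, and lowered 3 and raised 1 of the 11 end-joining genes. Over all genes tested, 13.4% were called lower and 8.61% higher in that comparison. The share of recombination and Fanconi partners called lower is near that background. Among the checkpoint, recombination and Fanconi partners the 1 gene called past 2-fold was ABRAXAS1, the scaffold of the BRCA1-A complex, which rose by 2.11 ± 0.24 on the log2 scale (4.31-fold, adjusted p = 0.000237). It was also higher with temozolomide plus Y15 (1.02 ± 0.24, adjusted p = 0.0123), and its change with Y15 in DBTRG cells was 0.08 (adjusted p = 0.834). ABRAXAS1 and XRCC2 thus both rose with Y15 in U87 cells and were not called in DBTRG cells, with tested differences between the lines of −2.03 (adjusted p = 0.00282) and −1.05 (adjusted p = 0.00673). DCLRE1C, the Artemis nuclease of end joining, picked out here after its values were seen, rose with Y15 in U87 cells by 1.23 (2.34-fold, adjusted p = 0.00255) and had 0.25 in DBTRG cells (adjusted p = 0.389). Temozolomide alone called 0 genes in each of these lists.

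**Figure D4:**
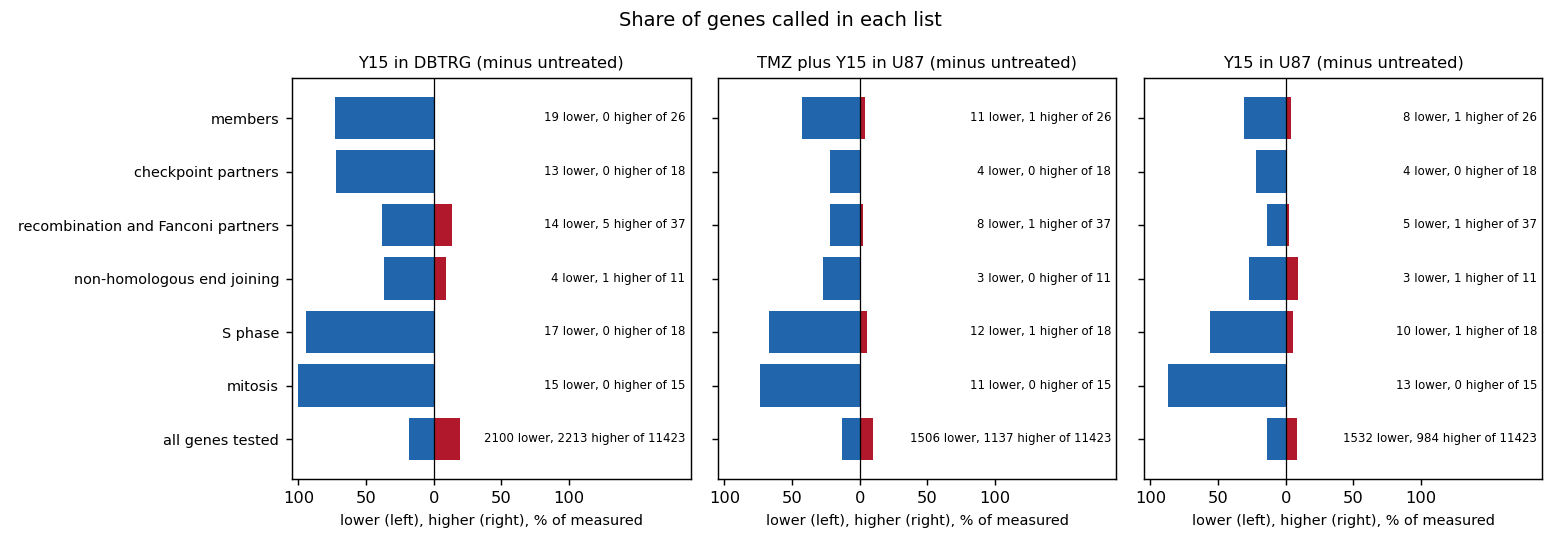
Share of measured genes called lower (blue, to the left) and higher (red, to the right) at a limma adjusted p under 0.05, in percent on the x axis, for the members, the partner and cell-cycle lists and all genes tested, with the counts printed, in DBTRG cells given Y15 and in U87 cells given temozolomide (TMZ) plus Y15 or Y15. In DBTRG the members' 19 of 26 lower sit between the checkpoint partners' 13 of 18 and the S-phase list's 17 of 18. The members' counts include ATR.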

How the data were processed

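RNA from 12 cell-line samples was measured on Illumina bead arrays. Per the labels, GenomeStudio is the one tool named, with its version not given in the sources used here. A deposited scanner table holds 1 intensity and 1 detection p-value per probe and array for 47323 probes, as the authors exported them per the file headers. The authors also deposited log2 values, whose medians (6.82 on every array) and ranks show a normalized copy of the same intensities, and these served as an alternative. Extraction notes in the labels describe frozen tissue, whereas the samples are labelled as cell lines.

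With limma 3.58.1 in R 4.3.3, intensities were background-corrected by normexp on the detection p-values (offset 16), taken to log2 and quantile-normalized. Probes with a detection p under 0.01 on at least 2 arrays were kept (19354). Probe symbols came from the platform annotation: 30113 probes had 1 symbol, 8 several and 17202 none listed, and 30074 matched RefSeq. Each gene used its kept probe with the highest mean. One fit of 6 group means gave moderated tests (6 residual and 4.46 prior degrees of freedom), two-sided, with Benjamini-Hochberg adjustment over 11423 genes and a threshold of 0.05. Changes are treated minus comparison group, with SE and 95% intervals. The number of arrays limits the precision. A gene not detected on any array of a group got a fold bound from each array's lowest detected signal. The script was tested on simulated data.

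The members and all lists were chosen with earlier results of these data known. The genes named are the 35 members, the cell type markers, and partners called at least 2-fold against untreated cells (at most 6 in a comparison). DCLRE1C was named outside this rule, after its values were seen. Alternatives changed the background correction, scaling, filter, probe choice, array weights, arrays fitted and replicate block, and left out each array in turn. Replicate numbers did not pair the samples: the 15 correlations of same-numbered deviations ran from −0.05 to 0.11.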

Additional observations from a re-analysis of the deposited data

Results flagged for a closer look

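The Y15 response differed between the lines for 8 members by a test of the difference itself, DBTRG minus U87, on the log2 scale. The difference was −1.26 for H2AX, −1.08 for CHEK2, −1.05 for XRCC2, −1.01 for RAD51D, −0.87 for MRE11, −0.79 for FANCL, −0.77 for RAD54L and −0.76 for CHEK1. In all 8 the DBTRG change was below the U87 change, and for XRCC2 both were above 0 (0.03 in DBTRG, 1.09 in U87). The RAD54L call was lost in several settings, among them the deposited log2 values (adjusted p = 0.111). CHEK1 was lost with only the arrays compared (adjusted p = 0.0577), and MRE11 with the mean of its kept probes (0.12). Further probes of MRE11 (0.08), CHEK2 (−0.45) and RAD51D (−0.81) were not called. The mitosis list, which moved beside the members, had 7 of its 15 genes called below 0 in the same test and 0 above 0, with a median difference of −0.53, and the S-phase list had 5 of 18 below 0 and 0 above 0. Their part in the members' differences was not tested. None of the 8 calls held when each array was centred on its median, and 2, H2AX and XRCC2, held whichever array was left out.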

How the results depend on the processing

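Over all alternatives, the single-gene values kept their direction and their side of the threshold in 3627 cases, moved past it in 107, fell short of it in 132 and reversed in 8, and the counts of called members stayed within 1.5 times in 137 cases and moved in 12. All 8 reversals came with centring each array on its median: RAD51C −0.64 and RAD51D −0.44 (Y15 in U87), NBN −0.11 (DBTRG against U87), and for the line difference BRCA1 0.67, RAD54L 0.032, FANCG 0.65, FANCL 0.060 and CHEK1 0.042. Centring also raised the Y15 count in U87 to 24 and that of temozolomide added to Y15 to 9, and array weights raised the Y15 count in U87 to 15; the cause was not tested. Leaving out 1 array gave 15 to 20 calls for Y15 in DBTRG, 4 to 8 for Y15 in U87, 3 to 10 for the combination, 7 to 10 for Y15 added to temozolomide, 10 to 14 for DBTRG against U87, 3 to 9 for the line difference, and 0 for temozolomide alone, temozolomide added to Y15 and the interaction. Every call survived all alternatives for 13 members with Y15 in DBTRG, 3 with Y15 in U87, 2 with the combination, 7 with Y15 added to temozolomide, 5 between the lines and 0 for the line difference. With the replicate number as a block, 19 members were called with Y15 in DBTRG, 11 with Y15 in U87, 13 with the combination, 13 with Y15 added to temozolomide, 14 between the lines and 8 for the line difference, each within 1.5 times of the unblocked count; same-numbered arrays share only a number. These counts include ATR, whose direction its filter fixed. Low signal limits ATR, and 2 arrays per group limit every test.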
